A study of Mus musculus with 3 samples.

Results

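Metallothioneins, glutathione transferases and 4 further antioxidant enzymes were followed across the cell types of the mouse subventricular zone. The members are Mt1, Mt2, Mt3, Gstm1, Gstm5, Gsta4, Gstp1, Gpx4, Prdx6 and Sod1, taken from the gene lists of the count matrices by symbol. All 10 were found among 27998 listed genes, and all 10 passed the filter on low counts in every comparison below.

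The subventricular zone lines the lateral wall of the lateral ventricle and holds ependymal cells, astrocytes, neural stem cells and their dividing and neuronal progeny. All cells came from adult mice that carried aSMACreERt2::Rosa26-tdTomato and the Sox2 reporter allele B6;129S-Sox2tm2Hoch/J, on a mixed background, C57/Bl6(3/4) crossed with 129S1SvlmJ(1/4). In these mice a tamoxifen-dependent Cre under the smooth muscle actin promoter switches on tdTomato, and GFP reports Sox2, so that the libraries hold Sox2 reporter-positive cells. The labels give n = 5 mice. The labels name no tamoxifen dose or time. Papain-dissociated cells were sorted by fluorescence and captured in droplets (10x Single Cell 3' v2). One library was made from 1200 sorted cells positive for both tdTomato and GFP. The other 2, called tdTomato-negative 1 and 2, were made from 1200 and 6000 cells positive for GFP alone. The tdTomato-positive gate therefore has no replicate. Whether the mice were split or pooled between libraries is not stated. A p-value between gates therefore rests on the spread between libraries. A p-value between classes rests on the spread of sums left after class and library are fitted. Either spread may be technical.

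Metallothioneins are small cysteine-rich proteins that bind zinc and copper, and Mt1 and Mt2 are transcribed through metal response elements bound by the zinc sensor MTF1. Mt3 is the member known for its expression in brain, where astrocytes are a main source. Glutathione transferases join glutathione to reactive compounds, with Gsta4 acting on the lipid peroxidation product 4-hydroxynonenal. Gpx4 reduces lipid hydroperoxides in membranes, Prdx6 is a peroxiredoxin that reduces phospholipid hydroperoxides, and Sod1 is the cytosolic copper and zinc superoxide dismutase.

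The metallothionein genes stand in a row on chromosome 8 of GRCm38, all on the plus strand: Mt3 at chr8:94152607-94154146, Mt2 at chr8:94172664-94173568 and Mt1 at chr8:94179082-94180327. Mt2 ends 5513 bases before Mt1 begins, and Mt3 ends 18517 bases before Mt2, with no coding gene between them. Their promoter windows are shown because the 3 genes shared a cell type pattern while Mt2 departed from it in dividing cells (below). The windows run from 250 bases before to 30 bases after the start in RefSeq (build GRCm38.p6), and capitals mark the core of the metal response element (TGCACNC or TGCGCNC on either strand).
Mt1 chr8:94178839-94179118 (+ strand): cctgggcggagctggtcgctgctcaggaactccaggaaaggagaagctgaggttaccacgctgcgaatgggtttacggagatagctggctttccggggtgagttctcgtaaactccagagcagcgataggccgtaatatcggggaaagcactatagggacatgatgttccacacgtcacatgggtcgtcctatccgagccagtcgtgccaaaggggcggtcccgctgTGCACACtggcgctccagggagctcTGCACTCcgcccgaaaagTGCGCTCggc
Mt2 chr8:94172368-94172647 (+ strand): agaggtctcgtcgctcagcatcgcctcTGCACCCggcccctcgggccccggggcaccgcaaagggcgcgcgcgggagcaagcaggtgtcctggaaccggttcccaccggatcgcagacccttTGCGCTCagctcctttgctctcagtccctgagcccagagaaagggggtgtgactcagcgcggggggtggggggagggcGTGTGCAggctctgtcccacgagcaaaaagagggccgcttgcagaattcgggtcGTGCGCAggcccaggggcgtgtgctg
Mt3 chr8:94152357-94152636 (+ strand): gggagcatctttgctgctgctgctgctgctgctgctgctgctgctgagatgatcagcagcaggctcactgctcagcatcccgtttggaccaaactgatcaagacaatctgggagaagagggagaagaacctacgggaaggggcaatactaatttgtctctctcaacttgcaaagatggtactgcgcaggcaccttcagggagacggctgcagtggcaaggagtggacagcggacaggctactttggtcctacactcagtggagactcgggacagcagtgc
The core was found at 3 places in the Mt1 window and at 4 in the Mt2 window, and at none in the Mt3 window. Of 32851 windows of this length, 24.1% held at least 1 core, 1.73% held at least 3 and 0.405% held at least 4. The core of the antioxidant response element (TGACNNNGC on either strand), found in 11.5% of windows, occurred at 1 place each in the windows of Mt2, Gstm5 and Sod1. The windows of Gstm5 and Gstm1 also held 1 metal response element core each. Windows were at hand for 8 of the 10 members. Letters outside the windows were not searched, so the matches depend on the start taken, and an absent match holds for the window alone. A match of letters is a description and not a binding site.

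Gstm5 (chr3:107895821-107898686, plus strand) and Gstm1 (chr3:108012255-108017973, minus strand) lie in the Gstm cluster, 113568 bases apart with Gstm7, Gstm6, Gstm3 and Gstm2 between them. The other members stand apart from these and from each other: Gsta4 at chr9:78182774-78209349, Gstp1 at chr19:4035407-4037985, Gpx4 at chr10:80047166-80056439, Prdx6 at chr1:161240112-161251219 and Sod1 at chr16:90220754-90226329. Reads of this chemistry come from the 3' end of transcripts, so the last 500 bases of each member were compared with other genes. Of the 50-base words there, 89.9% for Gpx4 also occur in a copy such as Gpx4-ps2, 78.0% for Gstp1 in Gstp2, 30.2% for Sod1 in Gm8566 and 23.0% for Gstm1 in Gstm2-ps1 or Gstm3. The counts of these 4 genes are uncertain in so far as the counting split or dropped such reads. No such word was found for the other 6. Mt2, Gstm5 and Sod1 overlap a gene on the opposite strand (Gm45774, 4933431E20Rik and Scaf4), and whether the counting used strand is not stated.

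The 3 libraries held 314, 259 and 1127 barcodes with 788344, 929997 and 3593633 UMIs (tdTomato-positive, tdTomato-negative 1 and 2). After filtering, 252, 256 and 1121 cells remained, with medians of 2535, 2639.5 and 2401 UMIs. The median mitochondrial share was 8.27% in the tdTomato-positive library against 3.22% and 3.38%, and 3 barcodes occurred in 2 libraries. Cells fell into 13 clusters, formed without the members, and 11 of them took the name of the marker list that led them. The tdTomato-positive library gave 177 of 235 ependymal-like cells, led by Ccdc153 and Rarres2, and every cell of the endothelial-like (20), microglia-like (14) and mural-like (8) clusters. The tdTomato-negative libraries gave 262 of 278 astrocyte-like cells, 41 of 55 oligodendrocyte-like cells, 313 of 314 neuroblast-like cells and all 148 transit-amplifying-like (dividing) and 51 oligodendrocyte precursor-like cells. Astrocyte-like cells can include quiescent neural stem cells, which share most of those markers. Of the unnamed clusters, 1 of 410 cells was led by Pbx3 and Prokr2 and 1 of 96 cells by Ung and Mcm2, genes of DNA repair and replication.

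Metallothionein transcripts were abundant in ependymal-like and astrocyte-like cells and low elsewhere. Levels are CPM, a gene's UMI count scaled to the total of its class in the library, over sums of at least 10 cells. Mt1 reached 14577, 12102 and 13711 in ependymal-like cells, given in the order tdTomato-positive, tdTomato-negative 1, tdTomato-negative 2 here and below (13463 ± 1256, SD, n = 3 libraries). In astrocyte-like cells Mt1 reached 10577, 11119 and 10521 (10739 ± 330, n = 3). Every ependymal-like value lay above every astrocyte-like value. In neuroblast-like cells of tdTomato-negative libraries 1 and 2 Mt1 stood at 417 and 567, and in transit-amplifying-like cells at 459 and 738. The order below the 2 glial classes was endothelial-like (2302, 1 library), oligodendrocyte-like (1749 ± 1074), the Ung- and Mcm2-led cluster (1250 ± 179), microglia-like (1033, 1 library), oligodendrocyte precursor-like (901 ± 13.2), transit-amplifying-like (598 ± 197), the Pbx3- and Prokr2-led cluster (494 ± 179) and neuroblast-like cells (492 ± 106). The oligodendrocyte-like range overlapped both of its neighbours in this order, endothelial-like cells and the Ung- and Mcm2-led cluster. From transit-amplifying-like cells down, neighbours overlapped too. The endothelial-like and microglia-like values come from the tdTomato-positive library alone, so class and library cannot be told apart for them.

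Of the 3 metallothioneins, Mt3 differed most between the 2 glial classes. It stood at 13397, 13414 and 12130 in ependymal-like cells (12980 ± 737, n = 3) and at 7871, 6777 and 6396 in astrocyte-like cells (7014 ± 766, n = 3), with no overlap. Microglia-like cells came next at 1798 (47 UMIs) and endothelial-like cells at 1049 (36 UMIs), each from the tdTomato-positive library alone. In that library Mt3 of oligodendrocyte-like cells was also highest, at 1966 against a lowest library value of 449. For microglia-like and endothelial-like cells, class and library cannot be told apart. Transit-amplifying-like and neuroblast-like cells were lowest at 313 ± 45.3 and 310 ± 58.7 (n = 2 each), and their ranges overlapped.

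Mt2 was highest in ependymal-like cells at 3978, 2847 and 4390 (3738 ± 799, n = 3) and in astrocyte-like cells at 2644, 3489 and 3445 (3193 ± 475, n = 3). These ranges overlapped. The third place was taken by the Ung- and Mcm2-led cluster at 630 and 860. Transit-amplifying-like cells stood at 258 and 468, above the neuroblast-like cells of both libraries at 80.6 and 181.

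**Figure D1:**
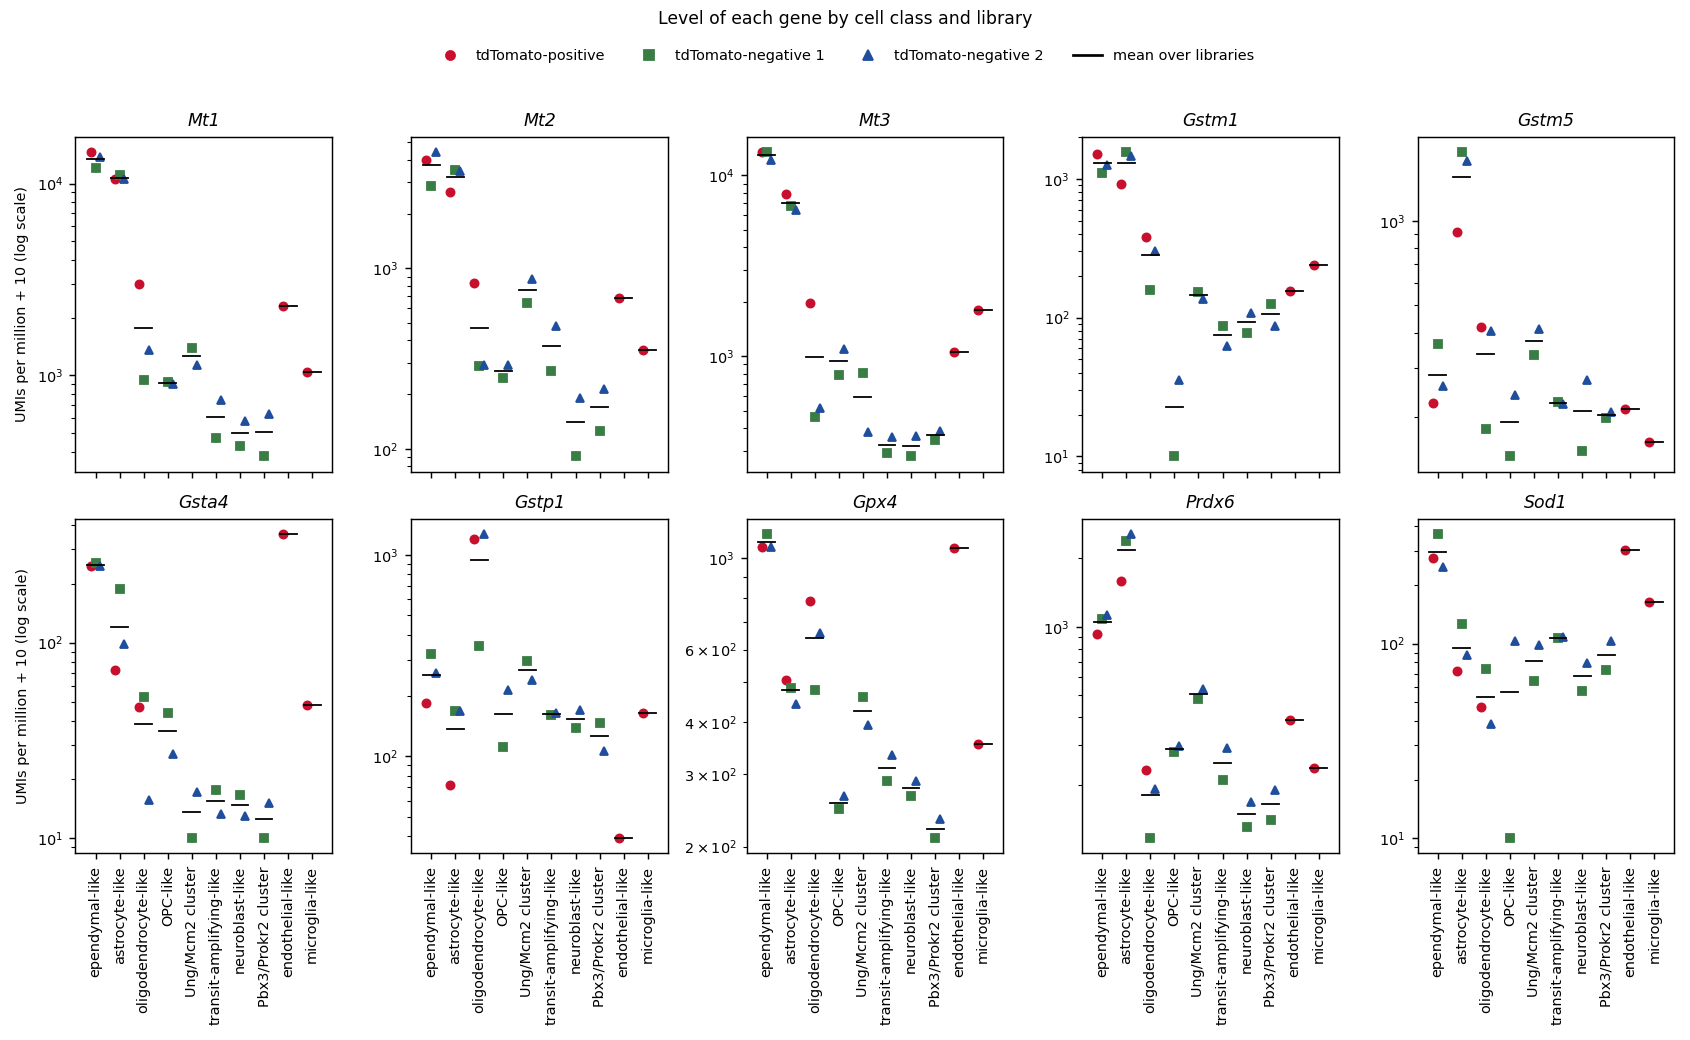
Level of each of the 10 members in every class (CPM with 10 added, log scale), 1 point per library with at least 10 cells of the class and a line at the mean; OPC-like stands for oligodendrocyte precursor-like. Mt1, Mt2 and Mt3 are highest in ependymal-like and astrocyte-like cells, Gstm5 and Prdx6 in astrocyte-like cells, and Gstp1 in oligodendrocyte-like cells.

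Mt1, Mt2 and Mt3 together took up 3.20%, 2.84% and 3.02% of all UMIs of ependymal-like cells in the 3 libraries and 2.11%, 2.14% and 2.04% of those of astrocyte-like cells. In neuroblast-like cells the share was 0.0766% and 0.110% (tdTomato-negative 1 and 2), and in transit-amplifying-like cells 0.0998% and 0.155%. High levels were a property of nearly all ependymal-like cells: 172 of 177, 11 of 12 and 43 of 46 cells held over 1% of their UMIs in the 3 genes. Among astrocyte-like cells 12 of 16, 36 of 43 and 184 of 219 did so. No neuroblast-like or transit-amplifying-like cell reached 1%. In the Ung- and Mcm2-led cluster 2 of 18 and 4 of 77 cells of the tdTomato-negative libraries passed 1%, with maxima of 7.64% and 5.31%, so part of that cluster's metallothionein level comes from few cells.

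Nearly every glial cell had a UMI of Mt1 (100% of 235 ependymal-like and 99.6% of 278 astrocyte-like cells). The gene was also seen in 71.3% of 314 neuroblast-like cells, at a median of 2414.5 UMIs a cell, and in 94.6% of 148 transit-amplifying-like cells, at 7294.5. After each cell was thinned to 1000 UMIs these last 2 shares were 41.2% and 43.9%, near each other, and both glial shares were 100%. Free RNA in the droplets can give such UMIs, and the neuroblast-like level of Mt1 was 3.44% and 4.13% of the ependymal-like level of the same library. The corresponding values were 2.00% and 2.90% for Mt3, 2.83% and 4.12% for Mt2, and 2.75% and 1.25% for Gsta4. All other members stood higher, from 6.16% (Gstm1, tdTomato-negative 1) to 105% (Gstm5, tdTomato-negative 2). In transit-amplifying-like cells the values were 3.79% and 5.38% for Mt1, 9.07% and 10.7% for Mt2, and 2.10% and 2.85% for Mt3. The low metallothionein levels in neuroblast-like and transit-amplifying-like cells are therefore read as upper limits of expression. The part of free RNA in them was not tested.

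The balance between Mt1 and Mt2 differed between classes, which the summed levels do not show. Capture differs between genes, so the share is compared between classes and not read as a molar ratio. Mt2 made up 36.0% (95% Clopper-Pearson interval 29.1 to 43.4) and 38.8% (35.9 to 41.8) of the Mt1 and Mt2 UMIs of transit-amplifying-like cells in tdTomato-negative libraries 1 and 2. In neuroblast-like cells it made up 16.2% (8.67 to 26.6) and 24.2% (20.5 to 28.2). In both libraries the intervals of the 2 classes were apart. Astrocyte-like cells gave 20%, 23.9% and 24.7% and ependymal-like cells 21.4%, 19.0% and 24.3%, close to the 21.4%, 23.9% and 26.6% of the whole libraries. The Ung- and Mcm2-led cluster gave 31.4% (25.4 to 37.9) and 43.4% (40.0 to 46.8). Without its cells over 1% metallothionein, an alternative chosen after seeing the data, the shares were 34.0% (25.04 to 43.8) and 42.6% (38.8 to 46.4). With or without those cells, the cluster's interval overlapped the neuroblast-like one in library 1 and was apart from it in library 2. The intervals cover counting error only. Free RNA can add to the UMIs of classes with low levels, and its part in these shares was not tested. Whether the promoter letters above bear on this share was not tested, and no factor was measured at either promoter.

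**Figure D2:**
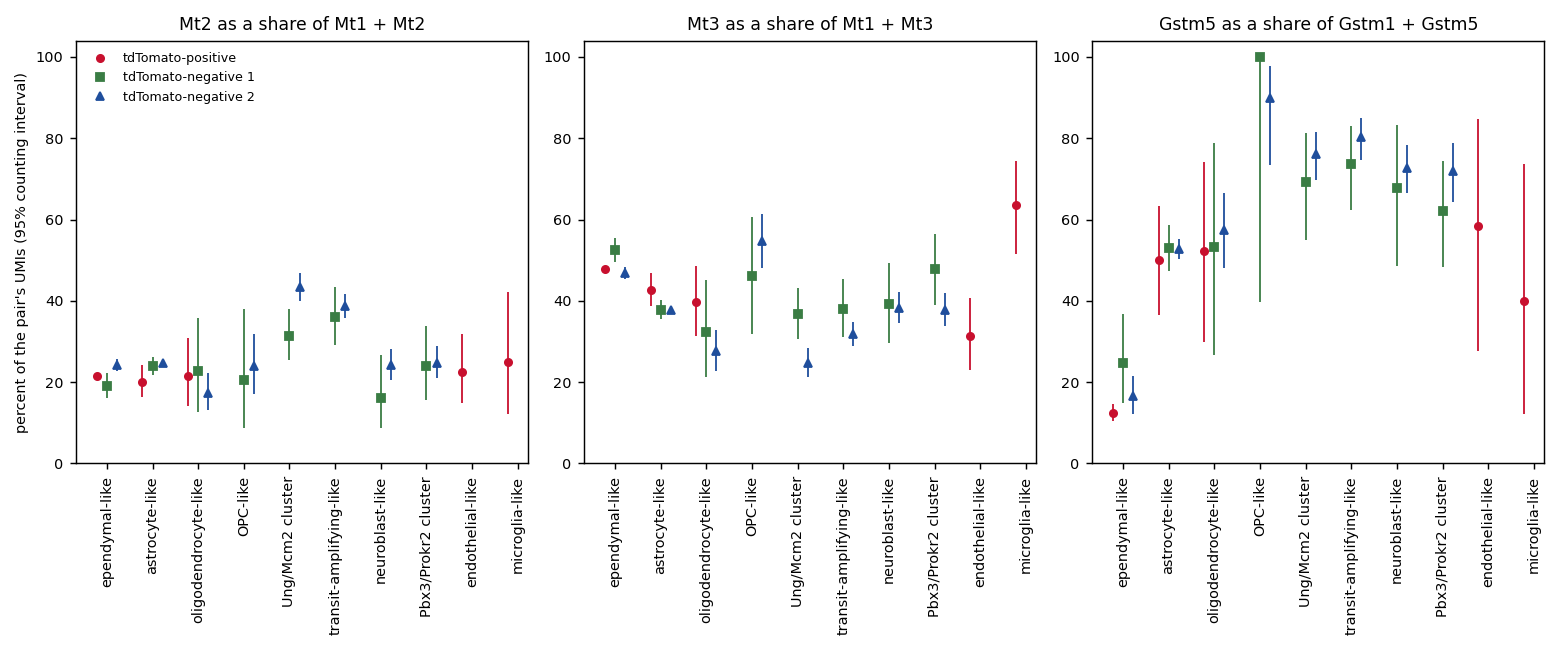
Share of the first-named gene among the UMIs of a pair (percent, 95% counting interval), by class and library; OPC-like stands for oligodendrocyte precursor-like. Mt2 takes 36.0% and 38.8% in transit-amplifying-like cells against 16.2% and 24.2% in neuroblast-like cells, and Gstm5 takes 12.4% to 24.6% in ependymal-like cells against 50.0% to 53.0% in astrocyte-like cells.

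The 2 Gstm genes of the same cluster parted between the glial classes. Gstm1 stood at 1508, 1090 and 1260 in ependymal-like cells (1286 ± 210, n = 3) and at 902, 1549 and 1449 in astrocyte-like cells (1300 ± 348, n = 3), with overlapping ranges. Gstm5 stood at 902, 1750 and 1623 in astrocyte-like cells (1425 ± 457) but at 214, 356 and 249 in ependymal-like cells (273 ± 73.9), with no overlap. Ependymal-like Gstm5 lay among the other classes, which ran from 153 (microglia-like, 4 UMIs) to 363 (the Ung- and Mcm2-led cluster). Gstm5 therefore made up 12.4%, 24.6% and 16.5% of the UMIs of the pair in ependymal-like cells and 50.0%, 53.0% and 52.8% in astrocyte-like cells. In transit-amplifying-like cells, where Gstm1 was low at 77.1 and 52.2, its share was 73.7% and 80.3%. In oligodendrocyte precursor-like cells Gstm1 was all but unseen, with 3 UMIs in all.

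Gsta4 was highest in the few endothelial-like cells and in ependymal-like cells. It stood at 236, 245 and 237 in ependymal-like cells (239 ± 4.595, n = 3), at 350 in endothelial-like cells (12 UMIs) and at 62.2, 179 and 89 in astrocyte-like cells, the first from 2 UMIs. It was seen in 46.4% of ependymal-like and 20.5% of astrocyte-like cells, and in 0.955% of neuroblast-like cells, where 3 UMIs were counted. At 1000 UMIs a cell the shares were 19.4%, 11.6% and 0% (medians before thinning of 3620, 2352 and 2414.5 UMIs). By pooled counts Gsta4 was 65.0-fold higher in ependymal-like than in neuroblast-like cells (95% interval 21.9 to 318) and 27.5-fold higher in astrocyte-like cells (9.01 to 137).

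Gstp1, the transferase of the pi class, was highest in neither ependymal-like nor astrocyte-like cells. Oligodendrocyte-like cells led at 1187, 342 and 1259 (929 ± 510, n = 3), all above the next class, the Ung- and Mcm2-led cluster at 228 and 288. The oligodendrocyte-like class pools 2 clusters (below): 14, 4 and 20 cells led by Ptgds, and 0, 6 and 11 led by 9530059O14Rik and Bmp4. The part of this mix in the spread was not tested. Ependymal-like cells stood at 173, 311 and 249 and astrocyte-like cells at 62.2, 158 and 157. The remaining classes ran from 116 to 153, apart from endothelial-like cells with 1 UMI.

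Among the peroxide- and superoxide-removing enzymes, Gpx4 was highest in ependymal-like cells at 1056, 1135 and 1056 (1082 ± 45.3, n = 3) and in endothelial-like cells at 1049 (36 UMIs, 1 library). Astrocyte-like cells held less than that at 498, 474 and 434 (469 ± 32.3), and overlapped the oligodendrocyte-like range of 470 to 779. Prdx6 was highest in astrocyte-like cells, at 1587, 2371 and 2555 (2171 ± 515), above all ependymal-like values of 921, 1068 and 1119 (1036 ± 102). Sod1 stood at 267, 356 and 237 in ependymal-like cells (287 ± 61.8) and at 291 in endothelial-like cells (10 UMIs), against 62.2, 116 and 77.6 in astrocyte-like cells. All other classes with 2 or more libraries had mean Sod1 levels from 43.3 to 97.1.

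Ependymal-like and astrocyte-like cells, which share high metallothioneins, were then compared over library sums with library as a block. By edgeR's quasi-likelihood test with Benjamini-Hochberg adjustment at 0.05, 4 members were higher in ependymal-like cells and 2 in astrocyte-like cells, where 26.9% of 3798 genes were called, 16.7% higher and 10.2% lower. Sod1 was higher by 1.62 on the log2 scale (SE 0.33, edgeR adjusted p = 1.04e-05). Gpx4 was higher by 1.23 (SE 0.24, edgeR adjusted p = 3.2e-06). Both, and the other called members given next, differ in the same direction in every library. Gsta4 was higher by 1.13 (SE 0.33, edgeR adjusted p = 0.00304) and Mt3 by 0.91 (SE 0.22, edgeR adjusted p = 0.000186). In the other direction the log2 difference was -2.38 for Gstm5 (SE 0.25, edgeR adjusted p = 1.71e-19) and -1.02 for Prdx6 (SE 0.22, edgeR adjusted p = 3.5e-05). Mt1 (0.33), Mt2 (0.21), Gstm1 (-0.01) and Gstp1 (0.66) did not pass (edgeR adjusted p = 0.28, 0.538, 0.99 and 0.102). Gstm5 was the member called whichever library was left out. Without tdTomato-negative library 2, which holds most astrocyte-like cells, Mt3, Gsta4, Gpx4 and Sod1 lost the call (log2 differences of 0.70, 0.75, 0.96 and 1.57, edgeR adjusted p = 0.144, 0.533, 0.0732 and 0.0776). Without tdTomato-negative library 1, Mt3 (1.03, edgeR adjusted p = 0.0508) and Prdx6 (-0.81, edgeR adjusted p = 0.188) did, and without the tdTomato-positive library Gstm1 gained one at -0.46 (edgeR adjusted p = 0.0137).

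Dissociation-linked genes, such as Fos and heat shock genes, moved with this contrast: 8 of 17 tested genes of a list of 20 were higher in ependymal-like cells, where 16.7% of all genes were. Their summed level was 6666, 6785 and 8277 in ependymal-like cells and 1120, 653 and 927 in astrocyte-like cells. The median mitochondrial share also differed, at 9.11%, 6.32% and 7.25% against 8.88%, 4.79% and 4.77%. Neuroblast-like cells summed to 2090 and 2403 on the stress list and had little metallothionein. The part of stress or RNA quality in the differences was not tested. The markers separated the classes: astrocyte markers summed to 35838, 32514 and 30034 in astrocyte-like cells and to 3762, 3559 and 3260 in ependymal-like cells. Ependymal markers summed to 18424, 17352 and 19881 in ependymal-like cells and to 1649, 422 and 290 in astrocyte-like cells.

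**Figure D3:**
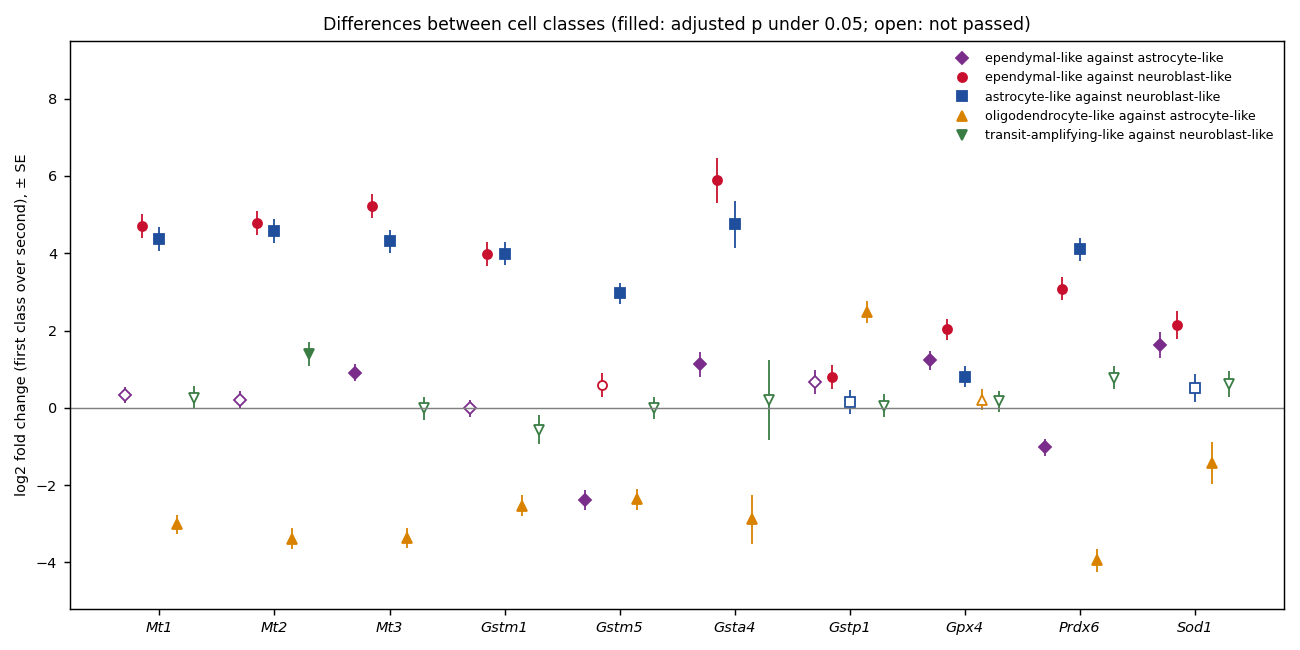
Log2 fold change of each member between classes (points, with the approximate standard error as bars), from edgeR on sums per library and class; filled points passed an adjusted p of 0.05. Gstm5 and Prdx6 lie below 0 for ependymal-like against astrocyte-like cells while Mt3, Gsta4, Gpx4 and Sod1 lie above.

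Against neuroblast-like cells, both glial classes were higher in most members. In ependymal-like cells 9 of 10 members were higher, where 23% of all genes tested were (36.5% in either direction), with a median log2 difference of 3.53 against 0.11 over all genes. The members were chosen with earlier results of these data known. Counts of members called are therefore no test of the set, here or in the other comparisons. Mt3 led among genes with more than a few neuroblast UMIs at 5.22 (SE 0.32, edgeR adjusted p = 1.94e-57), followed by Mt2 at 4.79, Mt1 at 4.71, Gstm1 at 3.98 and Prdx6 at 3.08. Sod1 (2.14), Gpx4 (2.04) and Gstp1 (0.80, edgeR adjusted p = 0.0341) were higher by less, and Gstm5 did not pass (0.59, edgeR adjusted p = 0.125). In astrocyte-like cells 8 of 10 were higher, where 19.9% of genes were (36.9% in either direction), with a median of 4.05 against 0.01 over all genes. Under the same limit on neuroblast UMIs, Mt2 at 4.58, Mt1 at 4.37, Mt3 at 4.31 and Prdx6 at 4.10 were followed by Gstm1 at 3.99 and Gstm5 at 2.97. Gsta4, with 3 neuroblast-like UMIs, also passed in both glial classes, and its pooled folds are given above. Gpx4 was higher by 0.81 (edgeR adjusted p = 0.0113), and Gstp1 (0.14) and Sod1 (0.51) did not pass. The ependymal-like call of Gstp1 was lost without tdTomato-negative library 1 (0.74, edgeR adjusted p = 0.403) and without library 2 (0.53, edgeR adjusted p = 0.643). The astrocyte-like call of Gpx4 was lost without library 1 (0.61, edgeR adjusted p = 0.481) and without library 2 (0.95, edgeR adjusted p = 0.211). The ependymal-like call of Gpx4 passed in 13 of 13 alternatives.

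Against transit-amplifying-like cells 9 of 10 members were higher in ependymal-like cells, where 23.4% of genes were (39% in either direction), and 8 of 10 in astrocyte-like cells, where 21.7% were (42.6% in either direction). Gstm5 (ependymal-like) and Gstp1 and Sod1 (astrocyte-like) were the members that did not pass. Without tdTomato-negative library 1, Sod1 (1.38, edgeR adjusted p = 0.075) lost the ependymal-like call. Gstp1 lost it without library 1 (0.78, edgeR adjusted p = 0.356) and without library 2 (0.33, edgeR adjusted p = 0.754), and passed in 6 of 13 alternatives. In astrocyte-like cells Gpx4 lost its call without library 1 (0.39, edgeR adjusted p = 0.662) and without library 2 (0.85, edgeR adjusted p = 0.211), and passed in 7 of 13 alternatives.

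Between the dividing cells and the neuroblast-like cells Mt2 alone among the 10 members passed, and it was higher in transit-amplifying-like cells. The log2 difference was 1.397 (SE 0.31, edgeR adjusted p = 0.000112), higher in both libraries, where 8.64% of all genes were higher (15.6% called in either direction). Mt1 differed by 0.27 (edgeR adjusted p = 0.634) and Mt3 by -0.01 (edgeR adjusted p = 1). Prdx6 stood at 0.78 (edgeR adjusted p = 0.0623). Without tdTomato-negative library 1 the Mt2 difference was 1.38 (edgeR adjusted p = 0.241) and without library 2 it was 1.64 (edgeR adjusted p = 0.155), which leaves 1 sum a class. The lone sum was then assumed to vary like the other sums. Transit-amplifying-like cells also summed higher on the stress list, at 3022 and 4143 against 2090 and 2403, and the part of this in the Mt2 difference was not tested. Metallothionein levels were low in both classes, and the part of free RNA in the Mt2 difference was not tested either.

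Oligodendrocyte-like cells differed from astrocyte-like cells in 9 members. Against astrocyte-like cells 8 of 10 members were lower, where 11.2% of genes were, and Gstp1 was higher, where 8.9% were (20.1% in either direction). The Gstp1 difference was 2.48 (SE 0.28, edgeR adjusted p = 1.66e-17), and it passed without each library in turn. Prdx6 was lower by -3.95, Mt2 by -3.38, Mt3 by -3.37, Mt1 by -3.01, Gsta4 by -2.88, Gstm1 by -2.54 and Gstm5 by -2.37 on the log2 scale. Oligodendrocyte-like cells held 4 UMIs of Gsta4 and 9 of Sod1 in all, so these 2 differences rest on few counts. Sod1 at -1.43 passed narrowly (edgeR adjusted p = 0.0453) and lost the call without tdTomato-negative library 1 (edgeR adjusted p = 0.27) or 2 (edgeR adjusted p = 0.555). Without library 2 Gsta4 also did (-2.02, edgeR adjusted p = 0.231). Gpx4 did not pass (0.21, edgeR adjusted p = 0.667). The metallothioneins of the oligodendrocyte-like cells varied with the library: Mt1 stood at 2968 in the tdTomato-positive library and at 940 and 1339 in the others. In those same sums the astrocyte markers were at 5342, 1560 and 3337, the ependymal markers at 1039, 299 and 189 and the median mitochondrial share at 13.5%, 4.82% and 3.54%. The part of these in the spread was not tested.

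Within classes the members varied again. Among astrocyte-like cells a cluster of 62 cells led by Gfap, Prss56, Id3 and Thbs4 held more metallothionein than the 216 cells led by Htra1 and Slc7a10. In tdTomato-negative libraries 1 and 2 Mt2 stood at 5213 and 5125 in the Gfap-led cells and at 3001 and 3023 in the Htra1-led cells. Mt1 stood at 13390 and 13796 against 10477 and 9697, and Mt3 at 9421 and 9103 against 6029 and 5715. Prdx6 followed at 3874 and 3307 against 1947 and 2366, and Gstm1 at 2295 and 1865 against 1338 and 1345. The 2 libraries gave the same order for each of these 5 genes. Gstm5 lay closer together, at 1817 and 1938 against 1730 and 1544. The Gfap-led sum of library 1 holds 11 cells and the tdTomato-positive library gave 1 such cell, so these values are a description with no test. The Gfap-led cluster took its name with 2 astrocyte markers among its leading genes, the least allowed. At Leiden resolution 0.5 the only astrocyte-like cluster held 217 cells, led by Slc7a10 and Htra1. Another of 157 cells, led by Id3 and Gm10561, took no name there. Counting the Gfap-led cells as astrocyte-like thus depends on the setting.

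In oligodendrocyte-like cells Gstp1 and Gpx4 were highest in the 38 cells led by Ptgds, Trf and Mal, genes of mature oligodendrocytes. In tdTomato-negative library 2, Gstp1 stood at 1839 in these cells and at 398 in the 17 cells led by 9530059O14Rik and Bmp4, and Gpx4 at 891 and 284. In library 1 Gstp1 stood at 475 and 293, with overlapping counting intervals from 4 and 6 cells. Within the Ptgds-led cells Gstp1 was also lower in library 1, at 475 (95% counting interval 174 to 1034), than in the tdTomato-positive library (1187, 812 to 1676) and library 2 (1839, 1588 to 2118), with no test. With clustering on the odd-digit genes (below), the only oligodendrocyte-like cluster held 39 cells, led by Ptgds and Trf. The oligodendrocyte precursor-like cluster then held 67 cells against 51, so the class of the Bmp4-led cells depends on the setting.

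**Figure D4:**
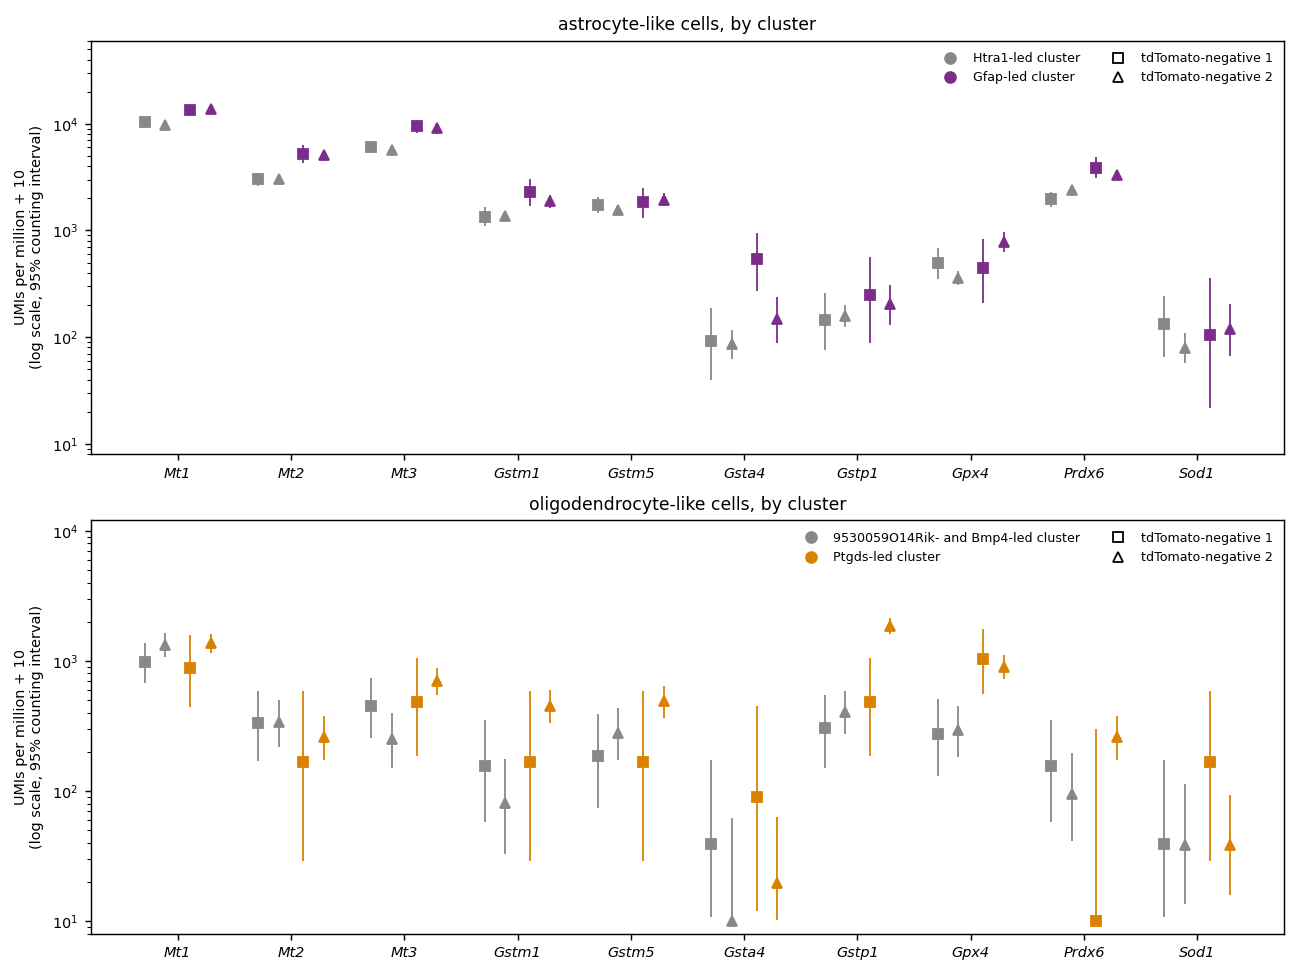
Levels of the members in the 2 astrocyte-like clusters and the 2 oligodendrocyte-like clusters (CPM with 10 added, log scale, 95% counting interval) in the tdTomato-negative libraries. Mt1, Mt2, Mt3, Gstm1 and Prdx6 are higher in the Gfap-led than in the Htra1-led cells of both libraries, and Gstp1 is highest in the Ptgds-led cells of library 2.

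The last question was whether the members differ with the tdTomato gate within a cell type. Over all cells of a library 7 of 10 members were higher in the tdTomato-positive library, where 23.5% of genes were (42.5% in either direction), on 3 library sums with 1 residual degree of freedom. Those sums mix cell types: 177 of 252 tdTomato-positive cells were ependymal-like, against 12 of 256 and 46 of 1121. Prdx6 (0.65, edgeR adjusted p = 0.0892), Gstp1 (0.06) and Gstm5 (-0.73, edgeR adjusted p = 0.0673) did not pass, and these include the 2 members lower in ependymal-like than in astrocyte-like cells. In such sums more cells of a type and more RNA per cell cannot be told apart.

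Within ependymal-like cells 0 of 10 members passed between the gates, where 0.241% of 2073 genes did (0.145% higher and 0.0965% lower). By edgeR 0 members reached an unadjusted p under 0.05, and by DESeq2 0 members passed. The log2 differences ran from -0.53 for Gstp1 (SE 0.31) to 0.44 for Gstm1 (SE 0.27), with Mt1 at 0.28, Mt2 at 0.21 and Mt3 at 0.19 (SE 0.29, 0.28 and 0.29). On simulated counts of this comparison 59% of 2-fold changes and 100% of 4-fold changes were called. The changed genes there all had more counts than Gstp1, Gstm5 and Gsta4 (160, 186 and 192 UMIs in ependymal-like cells). The same spread was assumed for every gene, so the shares do not cover these members. Smaller changes were not simulated.

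Within astrocyte-like cells 0 of 10 members passed by edgeR or by DESeq2, where 0% of 1034 genes did by edgeR, and 3 had an unadjusted p under 0.05. These 3 were Gstm5 (-0.88), Gstm1 (-0.71) and Prdx6 (-0.62), all lower in the tdTomato-positive cells. In all, 16 astrocyte-like cells were tdTomato-positive, 15 of them in the Htra1-led cluster. Within that cluster the tdTomato-positive cells were also the lowest, with no test: Gstm1 stood at 768 against 1338 and 1345, Gstm5 at 868 against 1730 and 1544, and Prdx6 at 1235 against 1947 and 2366. Over the whole class, the ependymal marker sum of the tdTomato-positive cells, 1649, was above the 422 and 290 of the other libraries. The median mitochondrial share was also higher, at 8.88% against 4.79% and 4.77%. The part of either in these differences was not tested. The difference of the gate effect between the 2 classes passed for 0 of 10 members by edgeR and by DESeq2, where 0% of 2124 genes passed by edgeR, with Mt2 and Gstm1 under an unadjusted p of 0.05.

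**Figure D5:**
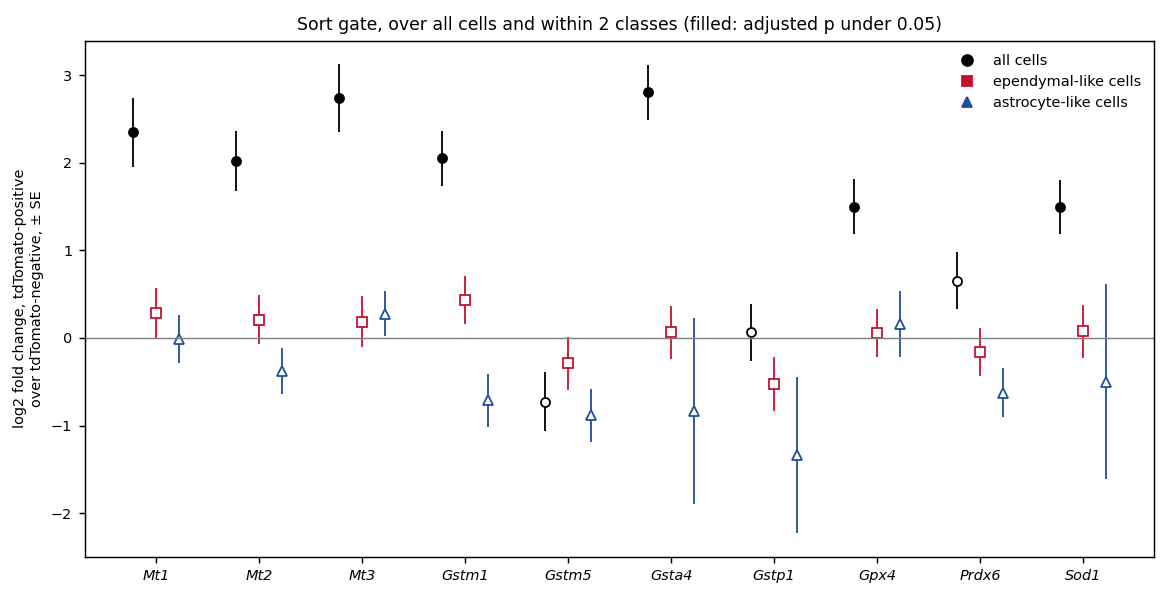
Log2 fold change of each member for the tdTomato-positive gate over the tdTomato-negative gate (points, with the approximate standard error as bars), over all cells and within ependymal-like and astrocyte-like cells. The 7 members called over all cells are the filled points, and none is called within either class.

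Other genes of metal and glutathione handling were read from a list of 85 genes by role. Of 50 tested in the class comparisons, 10 were higher and 4 lower in ependymal-like than in astrocyte-like cells, where 16.7% and 10.2% of all genes were. These counts are near the shares over all genes. Cp, which encodes the copper-carrying ferroxidase ceruloplasmin, was at least 20.4-fold higher (74 UMIs against 0, with a floor of 3 counts over the class). Txnip, an inhibitor of thioredoxin, was higher by 3.87, Gclc, the catalytic subunit of glutathione synthesis, by 2.38 and Txn1 by 2.03. Slc7a11, which imports cystine for glutathione synthesis, was lower by -4.59 (edgeR adjusted p = 7.41e-17). Slc39a12, a zinc importer, was lower by -2.00, and the manganese and zinc exporter Slc30a10 was 16.6-fold higher in astrocyte-like cells by pooled counts (5.28 to 83.6). Ggt7 was 15.8-fold higher there (3.94 to 137, from 26 and 2 UMIs).

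Against neuroblast-like cells 18 of the 50 were higher and 7 lower in ependymal-like cells, where 23% and 13.5% of all genes were. In astrocyte-like cells 21 were higher and 6 lower, where 19.9% and 16.9% were. The counts of lower genes are near or below the shares over all genes. Mgst1, a membrane-bound glutathione transferase, was 173-fold and 154-fold higher by pooled counts (30.6 to 6857 and 27.1 to 6122) on 1 neuroblast-like UMI. Not all redox genes followed the glia: Prdx2, a cytosolic peroxiredoxin, was lower by -1.42 in ependymal-like and by -1.53 in astrocyte-like cells. Txnrd1, thioredoxin reductase, was lower by -1.42 and -1.90. Neuroblast-like cells thus were below both glial classes in Prdx6 and above both in Prdx2. Between transit-amplifying-like and neuroblast-like cells 4 of the 50 were higher and 3 lower, at the 8.64% and 7% of all genes, so the counts say nothing particular of the list. Nfe2l2, which encodes NRF2, was higher by 1.78, Prdx4 by 1.46 and Gclm by 1.46, and Mgst1 was 13.5-fold higher by pooled counts (2.14 to 560, from 19 and 1 UMIs). Other glutathione transferases were lower there, Gstm7 by -1.89, Mgst3 by -1.24 and Gstt1 by 9.40-fold on pooled counts (2.79 to 49.4). Oligodendrocyte-like cells were higher than astrocyte-like cells in 4 and lower in 12 of the 50, where 8.9% and 11.2% of all genes were. The ferritin gene Fth1 (2.26) and Gstm7 (1.82) were among the higher ones. Among the lower ones, Slc39a12 was 26.2-fold (7.12 to 218) and Slc7a11 23.5-fold (7.93 to 115) higher in astrocyte-like cells by pooled counts.

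The genes most like each member were ranked by the correlation of log2 level over 21 sums of library and class among 3489 genes, as a description of sums that share libraries and cell mixtures. Mt1 was nearest to Mt2 (Pearson r = 0.966), Mlc1 (0.963) and Mt3 (0.962). Mt3 was nearest to Mt1, Chchd10 (0.958) and Pbxip1 (0.958), and Mt2 to Mt1, Mlc1 (0.949) and Prdx6 (0.928). Prdx6 was nearest to Cpe (0.947) and Gstm5 to Gjb6 (0.887), a connexin of astrocytes. Gsta4 was nearest to Gas6 (0.898), Gpx4 to Anxa5 (0.907), Gstp1 to Slc12a2 (0.884), Gstm1 to Eps15 (0.884) and Sod1 to Casd1 (0.866). Mlc1, Gjb6 and other markers were used to form the classes.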

How the data were processed

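Raw UMI counts were deposited by the authors as 1 matrix per library, not normalised. Per the submitters' processing notes, the tools were STAR, Cell Ranger and Seurat (version 1.4.0.15), and the builds GRCm38.p5 and mm10. Their roles and the treatment of reads with several matches are not given there. The members and lists were chosen with earlier results of these data known.

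From the deposited counts, cells were kept that had 300 or more genes and no more than 25% mitochondrial UMIs, then clustered (scanpy 1.11.5, Leiden resolution 1.0, seed 1) on 14056 genes: those with an even last digit in the Ensembl number plus markers, without members, pathway and stress lists. Tests used the odd-digit genes plus the lists. This does not make tests independent of clustering. A cluster took a list's name with at least 2 of its markers among the 10 leading genes, more than any other list, and at least 3 markers 2-fold higher. The minimum of 2 leading markers was chosen after the clusters were seen. No doublets were removed; Scrublet called 9, 2 and 3 cells.

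Counts were summed per library and class (at least 10 cells) and tested with edgeR 4.0.16 (R 4.3.3), TMM, filterByExpr, Benjamini-Hochberg at 0.05. Library was a block in class comparisons, since classes of a library share it. Standard errors are the absolute log2 fold change over the square root of F. On simulated data, 30% of 2-fold and 83% of 4-fold changes were called between ependymal-like and astrocyte-like sums, with 4 false calls among 2923 genes tested, and 2 false calls among 1977 in the ependymal-like gate comparison. The changed genes were drawn from the better-counted ones, and the same spread was assumed for every gene. Named genes were the 10 members, the 4 called pathway genes with the largest difference in each direction (at least 20 UMIs in all, some given in part), and the 3 genes most like each member (mean of at least 50 CPM, 10 added before the log), given in part. Where a class held 0 UMIs a floor of 3 counts gave a bound, and where it held 1 to 3 the pooled ratio carries an exact 95% interval. Shares carry Clopper-Pearson intervals. These cover counting error only. Gene positions are from GENCODE vM21 (GRCm38).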

Additional observations from a re-analysis of the deposited data

How the results depend on the processing

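No result changed sign with a call. Of 998 member values under settings other than leaving out a library, 954 kept their side of the threshold, 22 lost it and 22 gained it. Of 270 with a library left out, 226 kept it, 20 lost it, 2 gained it and 22 moved where no test was possible. The count for transit-amplifying-like against neuroblast-like cells was 1 and became 2 with RLE scaling, DESeq2, the stricter cell filter (500 genes, 10% mitochondrial), odd-digit clustering or resolution 2.0, and 3 with sums of at least 20 cells, with Prdx6 added in each and Gstm1 (-0.69) in the last. Leaving out a library gave 0 to 2 there, and 2 to 7 for ependymal-like against astrocyte-like cells (6 with all libraries). Within astrocyte-like cells the gate count went from 0 to 3 with Scrublet calls removed (Mt2 -1.37, Gstm1 -1.36, Prdx6 -1.13) and to 3 with odd-digit clustering (Mt3 0.42, Gstm5 -0.83, Prdx6 -0.56). The gate difference between classes went from 0 to 1 with no filter on low counts (Gstm1 1.84, edgeR adjusted p = 0.0123). The causes were not tested.

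Without the replicate block (library), 65 of 70 member values kept their side and 5 lost the call: Gstp1 ependymal-like against neuroblast-like (edgeR adjusted p = 0.139) and transit-amplifying-like cells (0.14), Gpx4 astrocyte-like against the same classes (0.0794 and 0.146), and Sod1 oligodendrocyte-like against astrocyte-like cells (0.0736). Mt3 in ependymal-like against astrocyte-like cells lost its call with DESeq2 (0.85, adjusted p = 0.0634). For the gates no paired analysis was possible because 1 tdTomato-positive library faces 2 tdTomato-negative ones and the numbers pair none; leaving out a library leaves no test there, and the stricter filter leaves too few astrocyte-like cells. All genes called over all cells of the gate fell from 2285 to 949 with DESeq2. Between dividing and neuroblast-like cells they went from 594 to 385 (DESeq2), 1004 (stricter filter), 939 (odd-digit clustering, also sums of 20 cells) and 382 (no replicate block). Between ependymal-like gates they went from 5 to 0 (DESeq2, odd-digit clustering), 2 (stricter filter), 3 (RLE) and 8 (resolution 2.0), and between astrocyte-like gates from 0 to 2 (no filter, DESeq2), 7 (RLE, resolution 0.5), 12 (resolution 2.0), 29 (Scrublet) and 40 (odd-digit clustering). For the gate difference they went from 0 to 4 (no filter). Leaving out a library lowered the class counts, to 234 of 1022 for ependymal-like against astrocyte-like cells without tdTomato-negative library 2. Of 200 thinned shares of cells with a UMI, 164 left the interval of the unthinned share.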
